A study of Mus musculus with 6 samples.

Results

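The genes described here are 8 chromatin factors that act when spermatids exchange their histones for protamines: Brdt, Brd2, Brd3, Kat5, Epc1, Rnf8, Chd5 and Kdm3a. They were chosen by name for their known role, with earlier results of these data known. All 8 were found among the 26743 genes of the deposited count table, each under 1 identifier, and all 8 passed the filter on low counts that left 16924 genes. The counts come from RNA-seq of whole testis, 1 library for each of 3 WT and 3 Trf2-/- males aged 21 days, made from RNA depleted of its ribosomal part. The Trf2-/- mice lack Trf2, a relative of the TATA-box binding protein, in all cells, and males without it are sterile, with spermatids that do not elongate. The WT mice carry no mutation by their label, and the study's methods name a 129/SvPas background for the mice it bred, without giving their litters. At 21 days the round spermatids of the first wave have just appeared. The study chose this age to come before the mutant round spermatids are lost.

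During spermiogenesis most histones are removed from the DNA and replaced by transition proteins and then by protamines. The exchange opens with a wave of acetylation of histone H4, which is read by bromodomain proteins, and it needs ubiquitylation of histones, nucleosome remodelers and passing DNA breaks. The transcripts of many of these factors are made ahead of the exchange, in spermatocytes and round spermatids.

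Counts on genes ran from 15187062 to 29859347 per mouse, and the lowest total was that of Trf2-/- mouse 3. Levels are given as CPM, the read counts of a gene over the library's total counts, scaled with TMM factors so that libraries can be compared. WT levels of the inactivated gene, listed as Tbpl1, were 308, 283 and 294 CPM, and Trf2-/- levels 62.9, 64.3 and 55.8 CPM, a log2 fold change of -2.27 (SE 0.06, adjusted p = 1.18e-06), so each library matched its label. Somatic and germ cell markers of testis were present in both genotypes. Of 11 listed markers of round spermatids 9 were tested and 8 fell, at a median log2 fold change of -1.57, which did not move when 2 genes with no more than 3 counts per Trf2-/- library were placed at their bound. Their summed level ran from 346 to 367 CPM in WT and from 138 to 220.0 CPM in Trf2-/- mice. Of 9 elongating spermatid markers 4 were tested and all 4 fell, at a median of -3.05, or of -2.61 with 1 gene at its bound. Of 12 spermatocyte markers 5 were lower and 3 higher (median -0.05, summed level 6576 to 6802 CPM in WT and 5377 to 5909 CPM in Trf2-/-). This median hides a split within the list. Ccna1 (-1.63), Pgk2 (-1.37), Ldhc (-0.70), Piwil1 (-0.25) and Mybl1 (-0.16) fell, while Sycp1 (0.29), Sycp3 (0.24) and Hormad1 (0.17) rose. Ccna1 was at 32.2, 32.4 and 11.0 CPM in Trf2-/- mice 1, 2 and 3, and Ldhc at 1477, 1657 and 1086 CPM, so mouse 3 lay lowest for both. Of 8 tested Sertoli markers 4 were higher (median 0.24, 465 to 501 against 550.5 to 600.2 CPM), and of 9 macrophage markers 5 were higher (median 0.76, 182 to 205 against 207 to 412 CPM). The macrophage sums were 412, 248 and 207 CPM in Trf2-/- mice 1, 2 and 3, so mouse 1 lay highest and mouse 3 next to WT. None (0) of the tested spermatogonial (8), Leydig (6), peritubular (4) and T cell (1) markers was lower, and 1, 1, 0 and 0 of them were higher. Their medians were 0.14, 0.27, 0.19 and 0.24, the last being the value of Cd4 alone. In whole testis, fewer cells of a type and less RNA per cell cannot be told apart.

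Of the 8 chromatin factor genes, 4 were lower in Trf2-/- testis and 0 were higher at an adjusted p under 0.05 (edgeR's quasi-likelihood test, Benjamini-Hochberg adjustment over all tested genes). By the same rule 31.4% of all tested genes were called, 20.2% lower and 11.2% higher. The genes that fell were Chd5, Kat5, Brd2 and Kdm3a. Chd5 and Kat5 fell in each of the 12 alternative fits, whereas the calls of Brd2 and Kdm3a were lost with any of 5 mice left out and with any of 6, respectively. Kdm3a was called in none (0) of the 12 alternative fits. None (0) of the 8 genes changed 2-fold, against 4.90% of all tested genes. The log2 fold changes ran from -0.67 for Chd5 to 0.12 for Rnf8, with a median of -0.15 against 0.04 over all tested genes. Levels did not overlap between genotypes for 6 genes that were lower and 1 that was higher, where 26.8% and 22.3% of all tested genes did so, 49.2% in either direction. The round spermatid markers and 5 of the 12 spermatocyte markers fell alongside, and their part in these differences was not tested. Scaling by library size alone moved the values up, as it did the median of all genes, by 0.09, and left 2 genes called lower, Kat5 and Chd5, and 1 called higher, Rnf8. Under that scaling the lower share of all calls went from 64.4% to 38.7%.

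**Figure D1:**
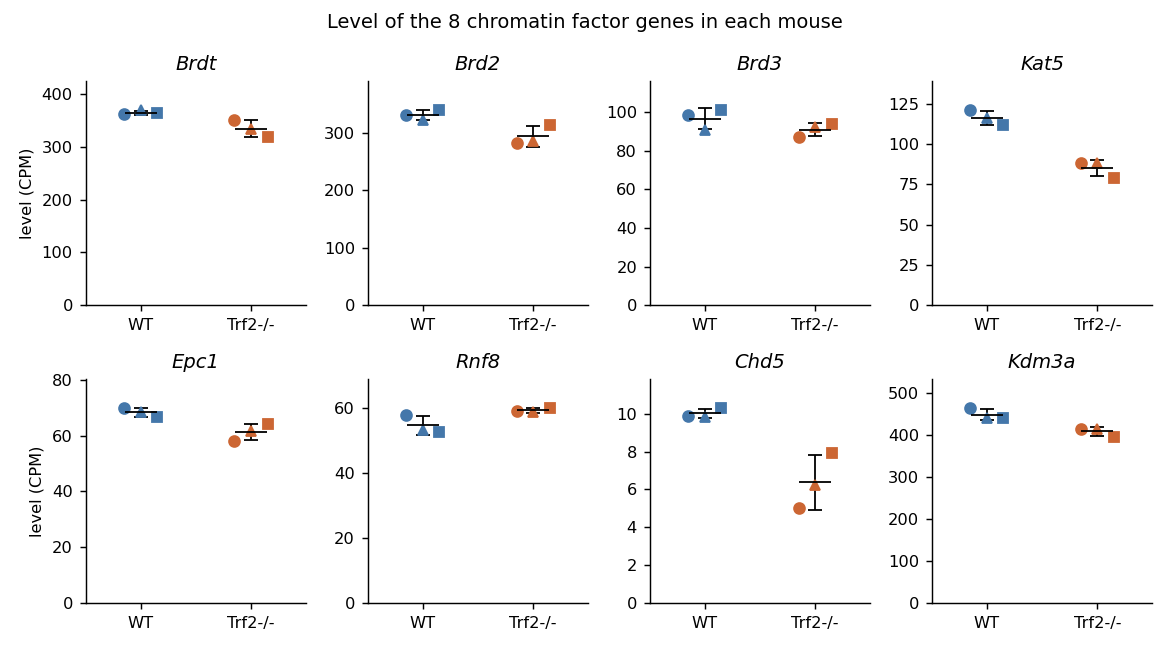
Level (CPM, axes from 0) of each gene in the 3 WT and 3 Trf2-/- mice, with circle, triangle and square for mice 1, 2 and 3 and the mean ± SD (n = 3) as bars. The genotypes separate widely for Kat5 and Chd5, and lie close together or overlap for the other genes, as for Brd3 at 90.7 to 101 CPM in WT and 87.2 to 93.7 CPM in Trf2-/- mice.

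The bromodomain readers come first in the order of roles. Brdt, Brd2 and Brd3 belong to the BET family, whose members carry paired bromodomains that bind acetylated histone tails. Brdt (ENSMUSG00000029279, chromosome 5 of NCBIM37, 107760178 to 107816077, plus strand) is made only in male germ cells and compacts hyperacetylated chromatin in spermatids. Its read counts were 10386, 9639 and 7556 for WT and 8856, 7770 and 5041 for Trf2-/- testes. These are 362, 369 and 363 CPM in WT and 351, 333 and 319 CPM in Trf2-/- testis. Every Trf2-/- mouse thus lay below every WT mouse, by a narrow gap. The mean fell short of the test, with 365 ± 4.04 CPM in WT and 334 ± 16.4 CPM in Trf2-/- testis (SD, n = 3 mice each) and a log2 fold change of -0.12 (SE 0.05, adjusted p = 0.0773). The 95% interval of the Trf2-/- level ran from 85.1% to 98.9% of the WT level. Leaving out each mouse in turn gave log2 fold changes from -0.18 to -0.08, and none (0) of these fits called Brdt.

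Brd2 (ENSMUSG00000024335, chromosome 17, 34248965 to 34259262, minus strand) is expressed in most tissues, as is Brd3. WT levels of Brd2 were 331, 322 and 339 CPM, and Trf2-/- levels 282, 285 and 314 CPM. The groups did not overlap, and Trf2-/- mouse 3 lay nearest to WT. Brd2 fell by 11.2% (95% interval of the level 81.7% to 96.5% of WT, log2 fold change -0.17, SE 0.05, adjusted p = 0.0369). The call rested on the full set of mice: with any WT mouse or Trf2-/- mouse 1 or 2 left out the adjusted p lay above 0.05, up to 0.111, while without Trf2-/- mouse 3 it was 0.00307 at a log2 fold change of -0.21.

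Brd3 (ENSMUSG00000026918, chromosome 2, 27301099 to 27363182, minus strand) reached 98.4, 90.7 and 101 CPM in WT and 87.2, 92.2 and 93.7 CPM in Trf2-/- testes. The groups overlapped, since WT mouse 2 lay below Trf2-/- mice 2 and 3. The log2 fold change was -0.09 (95% interval -0.22 to 0.04, adjusted p = 0.263), and it was 0.01 with scaling by library size alone.

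A ratio of 2 genes within a mouse does not depend on how libraries are scaled, so the BET genes were also set against each other per length, as log2 ratios of counts per kb. Brdt to Brd2 was 0.47, 0.54 and 0.44 in the WT mice and 0.66, 0.56 and 0.36 in the Trf2-/- mice. The Trf2-/- values surround the WT values, and the means differed by 0.05 (exact permutation test, two-sided, p = 0.600). Brdt to Brd3 likewise overlapped, with means of 2.44 ± 0.10 in WT and 2.40 ± 0.12 in Trf2-/- mice (SD, n = 3 each, exact permutation p = 0.600). Brd2 to Brd3 was lower in all 3 Trf2-/- mice, at 1.87, 1.81 and 1.93 against 1.93, 2.01 and 1.93 in WT, where mice come within rounding of each other (exact permutation p = 0.1, the smallest that 3 against 3 mice allow, and 0.200 adjusted over the 4 ratios computed).

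**Figure D2:**
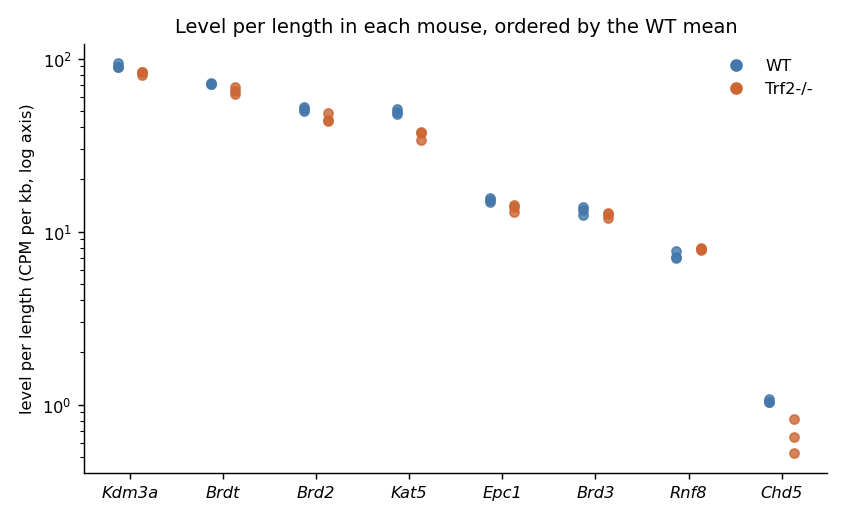
Level per length (CPM per kb of gene length, log axis) of each gene in each mouse, genes ordered by their WT mean, with WT in blue and Trf2-/- in orange. Kdm3a is highest at a mean of 90.4 in WT and Chd5 lowest at 1.05, and by the deposited lengths the order of the 8 genes is the same in both genotypes.

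Per length, the WT levels fell in the order Kdm3a (90.4 ± 2.73 CPM per kb), Brdt (71.3 ± 0.790), Brd2 (51.1 ± 1.33), Kat5 (49.3 ± 1.84), Epc1 (15.3 ± 0.363), Brd3 (13.2 ± 0.744), Rnf8 (7.27 ± 0.372) and Chd5 (1.05 ± 0.0269, SD, n = 3 mice each). Neighbours in that order did not overlap among the WT mice except Brd2 and Kat5, which differed by 1.04-fold. For Brd2 the deposited length is 6469 bases, against 7112 exon bases in the annotation of this build, GENCODE M1. Its place beside Kat5 thus depends on the length used. In the Trf2-/- mice Brd2 and Kat5 no longer overlapped, at 45.4 ± 2.73 against 36.2 ± 2.20 CPM per kb. By the deposited lengths, Brdt exceeded Brd2 by 1.39-fold in WT testis, and 94.6% of the tested genes lay below Brdt.

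Kat5 and Epc1 encode parts of the TIP60 complex, the acetyltransferase that acts on histones H4 and H2A. Kat5 is its catalytic subunit and Epc1 the scaffold that holds it to the nucleosome. Kat5 (ENSMUSG00000024926, chromosome 19, 5603017 to 5610050, minus strand) received 3459, 3024 and 2332 reads in WT and 2227, 2051 and 1253 in Trf2-/- testes. These are 121, 116 and 112 CPM in WT and 88.4, 88.0 and 79.2 CPM in Trf2-/- testis. All Trf2-/- mice lay far below the WT range, and Trf2-/- mouse 3 was the lowest. The mean fell by 26.6%, from 116 ± 4.33 to 85.2 ± 5.17 CPM (SD, n = 3 each), at a log2 fold change of -0.45 (SE 0.06, 95% interval -0.58 to -0.31, adjusted p = 9.01e-04). Of all tested genes 21.4% changed by more than Kat5 in size. With each mouse left out the log2 fold change stayed between -0.49 and -0.39 and the adjusted p at or below 0.00682. Rnaseh2c, a gene on the opposite strand, covers 18% of the exon bases of Kat5, and with the counter's use of strand not stated reads there could have gone to either gene or to none. The Rnaseh2c log2 fold change was 0.18 (adjusted p = 0.134), and 0.27 (adjusted p = 0.0279) with scaling by library size alone.

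Epc1 (ENSMUSG00000024240) reached 69.9, 68.3 and 66.7 CPM in WT and 58.1, 61.8 and 64.0 CPM in Trf2-/- testes. The groups did not overlap, and the Trf2-/- mice spread toward WT in mouse 3. The log2 fold change of -0.16 (SE 0.05, 95% interval -0.28 to -0.03) did not pass the test (adjusted p = 0.0568). It passed in 3 of the 12 alternative fits, with DESeq2's size factors, with at least 10 counts in every mouse and without Trf2-/- mouse 3. Within a mouse, the log2 ratio of Epc1 to Kat5 per length was -1.71, -1.69 and -1.67 in WT and -1.53, -1.43 and -1.23 in Trf2-/- testis. Every Trf2-/- value lay above the WT values, a mean shift of 0.29 toward Epc1 (exact permutation p = 0.1, adjusted 0.200).

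Of the 16 other subunits listed for TIP60, 6 fell and 1 rose, 37.5% and 6.25%, beside 20.2% and 11.2% of all tested genes. The list's median log2 fold change was -0.08, and 0.01 with scaling by library size alone, where 5 were lower and 2 higher. Yeats4, a reader of acetylated histones, fell most, from 85.8, 87.5 and 83.6 CPM to 52.4, 53.7 and 49.3 CPM, a log2 fold change of -0.72 (adjusted p = 1.76e-04). The ATPase gene Ruvbl2 (-0.54), the chromodomain gene Morf4l1 (-0.52), the actin-related gene Actl6a (-0.37) and the remodeler Ep400 (-0.29) fell too, with adjusted p of 3.19e-04, 4.37e-04, 0.00126 and 0.00169. Meaf6 made the sixth, at -0.19, and its call was lost without WT mouse 1 or 2 or Trf2-/- mouse 1 (-0.19 in each) and with scaling by library size alone (-0.09). Morf4l2, a paralogue of Morf4l1, rose by 0.25 on the log2 scale, a call lost without WT mouse 1 or 2 or Trf2-/- mouse 1 or 2 (0.20 to 0.24). The scaffold Trrap was at 0.15 (adjusted p = 0.0576, past the threshold in 3 alternative fits), and Ing3, a reader of histone methylation, was at 0.02 (95% interval -0.16 to 0.21).

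**Figure D3:**
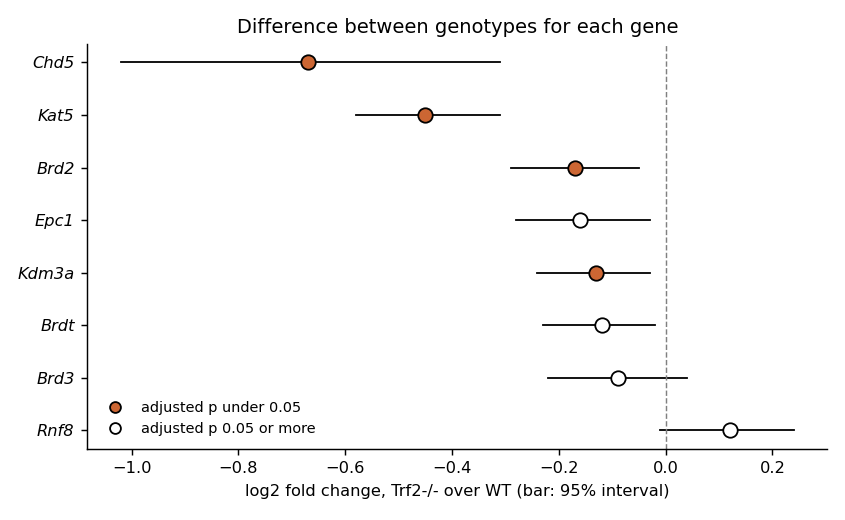
Log2 fold change of each gene in Trf2-/- over WT testis with its 95% interval, filled where the adjusted p was under 0.05. Chd5 and Kat5 stand apart at -0.67 and -0.45, and the other 6 genes lie between -0.17 and 0.12.

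Rnf8 is a ubiquitin ligase for histones H2A and H2B that is brought to damaged or silenced chromatin by Mdc1. Rnf8 (ENSMUSG00000090083, chromosome 17, 29751735 to 29840304, plus strand) was the only one of the 8 genes with a higher mean in Trf2-/- testis. WT levels were 57.9, 53.4 and 52.8 CPM, and Trf2-/- levels 59.2, 58.8 and 60.1 CPM. The Trf2-/- mice lay close together just above WT mouse 1. The log2 fold change of 0.12 (SE 0.06, 95% interval -0.01 to 0.24) did not pass the test (adjusted p = 0.138), and was 0.21 (adjusted p = 0.0163) with scaling by library size alone. In the annotation of this build, GENCODE M1, the Rnf8 gene model runs into Ftsjd2 on the same strand, and they share 3390 exon bases, 41.6% of those of Rnf8 in that model, where a read cannot be told to belong to either. The model has 8157 exon bases and the deposited Rnf8 length is 7519, so the gene model behind the counts differed, and its overlap with Ftsjd2 was not measured. Ftsjd2 was at -0.09 on the log2 scale (adjusted p = 0.373), or 0.00 with scaling by library size alone. Antisense to Rnf8, 1110021J02Rik overlaps 5.25% of its exon bases.

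The list named for the RNF8 ubiquitin pathway also holds genes of other histone ubiquitylation and of the proteasome. Among its 15 genes 2 fell and 2 rose (13.3% each), with a median log2 fold change of -0.03. Those that fell were Rnf40, a ligase for histone H2B, and Psme4, the proteasome activator known for the breakdown of acetylated histones in spermatids. Rnf40 went from 227, 228 and 227 CPM in WT to 146, 153 and 141 CPM in Trf2-/- mice (log2 fold change -0.63, adjusted p = 1.76e-04). Psme4 went from 669, 608 and 641 CPM to 495, 504 and 439 CPM (-0.42, adjusted p = 0.00164). Huwe1 (0.22) and Trp53bp1 (0.14) rose. The call of Huwe1 was lost without WT mouse 1 or 2 or Trf2-/- mouse 1 or 3 (0.17 to 0.29 with a mouse left out). Among the fits with a mouse left out, Trp53bp1 passed only without Trf2-/- mouse 3 (0.12 to 0.15). Mdc1 was level, at 416 ± 10.8 and 415 ± 16.1 CPM (SD, n = 3 mice each, 95% interval of the log2 fold change -0.11 to 0.10), and at a log2 fold change of 0.09 with scaling by library size alone.

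Chd5 encodes a chromodomain helicase of the remodelers related to NuRD, known from brain and testis and needed for chromatin compaction in spermatids. Chd5 (ENSMUSG00000005045, chromosome 4, 151712760 to 151764303, plus strand) was the least abundant of the 8 genes and changed most. Only 284, 257 and 215 reads in WT and 126, 145 and 125 in Trf2-/- testes were counted. These are 9.90, 9.84 and 10.3 CPM in WT and 5.00, 6.22 and 7.90 CPM in Trf2-/- testis. The WT mice were alike, while the Trf2-/- mice spread widely below them, with mouse 1 the lowest and mouse 3 the nearest to WT. The mean fell by 37.1%, from 10.0 ± 0.258 to 6.37 ± 1.46 CPM (SD, n = 3 each), at a log2 fold change of -0.67 (SE 0.16, 95% interval -1.02 to -0.31, adjusted p = 0.0120). The size was uncertain. The log2 fold change was -0.83 without Trf2-/- mouse 3 and -0.53 without Trf2-/- mouse 1, with an adjusted p of at most 0.0420 in all fits with a mouse left out. The order of the Trf2-/- mice was the reverse of that for Kat5, where mouse 3 lay lowest. Across the 6 mice, the log2 levels most like that of Chd5 were those of Smg6, Dtx2 and E130309D02Rik, with Pearson's r of 0.995, 0.994 and 0.991. These genes differed far less in size, with log2 fold changes of -0.12, -0.25 and -0.34. They were picked by the highest r over all tested genes, from 6 points that share libraries, so high values follow from the search.

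Of 9 other CHD genes 1 fell (Chd1l, -0.16) and 3 rose (Chd6 0.27, Chd8 0.21 and Chd2 0.17). These are 11.1% and 33.3% of the list, beside 20.2% and 11.2% of all tested genes. The list's median log2 fold change was 0.09. The call of Chd1l held in 1 of the 12 alternative fits, without Trf2-/- mouse 2 (-0.22), and its log2 fold change ranged from -0.22 to -0.12 with a mouse left out. The call of Chd6 was lost without WT mouse 1 or 2 (0.22 and 0.26) and that of Chd2 without any WT mouse or Trf2-/- mouse 1 (0.14 to 0.19 with a mouse left out).

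The promoters of the genes that fell in every fit, Chd5 and Kat5, are shown with that of the germ cell gene Brdt, which did not pass the test, since Trf2 belongs to a family of promoter factors. They are RefSeq windows from 250 bases before to 50 after a start, taken for GRCm38.p6 and found by exact match in NCBIM37. Capitals mark the searched motifs GGGCGG (GC box), TGACG (the core of a cyclic AMP response element) and CCAAT on either strand. The Chd5 window shown lies at chr4:151712510-151712809 (plus strand), the Kat5 windows at chr19:5610045-5610344 and chr19:5609695-5609994 (minus strand), and the Brdt window at chr5:107759963-107760262 (plus strand).
Chd5: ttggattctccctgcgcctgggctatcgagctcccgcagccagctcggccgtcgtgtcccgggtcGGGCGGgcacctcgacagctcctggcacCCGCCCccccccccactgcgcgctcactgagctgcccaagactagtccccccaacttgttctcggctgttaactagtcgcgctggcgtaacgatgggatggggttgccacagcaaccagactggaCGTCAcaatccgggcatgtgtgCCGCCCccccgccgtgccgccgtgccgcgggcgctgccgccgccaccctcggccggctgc
Kat5, upstream start: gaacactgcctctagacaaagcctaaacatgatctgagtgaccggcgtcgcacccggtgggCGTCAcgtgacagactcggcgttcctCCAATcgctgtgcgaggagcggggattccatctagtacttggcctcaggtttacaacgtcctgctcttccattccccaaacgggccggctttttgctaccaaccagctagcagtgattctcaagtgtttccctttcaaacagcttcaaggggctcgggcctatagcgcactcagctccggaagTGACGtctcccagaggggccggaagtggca
Kat5, downstream start: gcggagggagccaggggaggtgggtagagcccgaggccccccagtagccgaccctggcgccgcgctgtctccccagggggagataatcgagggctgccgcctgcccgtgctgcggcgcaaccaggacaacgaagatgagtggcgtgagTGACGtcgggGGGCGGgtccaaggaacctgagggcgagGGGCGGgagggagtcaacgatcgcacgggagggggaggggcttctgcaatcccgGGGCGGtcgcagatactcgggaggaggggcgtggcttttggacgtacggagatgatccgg
Brdt: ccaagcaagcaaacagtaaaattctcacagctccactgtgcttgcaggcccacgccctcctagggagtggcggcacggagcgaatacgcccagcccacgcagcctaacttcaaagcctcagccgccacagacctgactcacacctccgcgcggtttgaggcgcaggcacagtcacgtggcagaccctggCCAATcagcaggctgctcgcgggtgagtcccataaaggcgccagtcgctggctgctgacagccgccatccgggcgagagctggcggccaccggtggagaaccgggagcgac

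For 7 of the 8 genes the table held 13 such windows, some overlapping, and for Epc1 none (0). The TATA box core TATAAA was searched on both strands and was found in 0 of the 13 windows, where 13.6% of the 32851 promoter windows of all genes hold it. The full response element TGACGTCA, which contains TGACG, was in 0 of the 13 and in 1.79% of all. The core TGACG was in 5 windows, of Brd2, Kat5 and Chd5, and in 20.8% of all. GGGCGG was in 9 and in 35.7%, CCAAT in 4 and in 37.4%, and the MYB core CAGTTG in 0 and in 13.7%. The Chd5 window shown held 3 GC boxes and 1 TGACG, at -32 from the start, and 70.7% G and C, against a median of 52.7% over all promoters. A second Chd5 window, at chr4:151712513-151712812, overlaps it almost wholly. The same matches thus count in both among the 13 windows. The Kat5 windows held TGACG 2 times at the upstream start and 1 time at the downstream start, with 3 GC boxes at the latter. The Brdt window held a single CCAAT, at -61. These are matches of letters and not sites.

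Kdm3a removes methyl groups from lysine 9 of histone H3 and is known to act on the transition protein and protamine genes. Kdm3a (ENSMUSG00000053470, chromosome 6, 71538968 to 71582899, minus strand) was the most abundant of the 8 genes. WT levels were 465, 441 and 441 CPM, and Trf2-/- levels 416, 415 and 396 CPM, with no overlap. The mean fell by 8.88%, from 449 ± 13.6 to 409 ± 11.3 CPM (SD, n = 3 each), at a log2 fold change of -0.13 (SE 0.04, 95% interval -0.24 to -0.03, adjusted p = 0.0492). This p lay just under the threshold, and over the 12 alternative fits it ran from 0.0555 to 0.471, while the log2 fold change ran from -0.16 to -0.04.

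Of 18 other genes for methylation of lysine 9 of histone H3, 3 fell and 3 rose (16.7% each), with a median log2 fold change of 0.13. The demethylase gene Phf2 fell by 52.4%, from 110.3, 101 and 105 CPM to 47.9, 56.5 and 46.1 CPM (log2 fold change -1.07, adjusted p = 1.76e-04), further than any of the 8 genes. Kdm4d, a demethylase made mainly in testis, fell from 105, 95.6 and 104 CPM to 60.0, 66.0 and 57.3 CPM (-0.73, adjusted p = 3.21e-04). The methyltransferase gene Ehmt2 was lower (-0.27, adjusted p = 0.00746). The demethylase genes Jhdm1d (0.26) and Kdm4b (0.20) and the methyltransferase gene Ehmt1 (0.24) rose. All 3 of these calls were lost without WT mouse 2 (log2 fold changes of 0.24, 0.18 and 0.26), that of Kdm4b also without WT mouse 3 or Trf2-/- mouse 1 (0.18 in both), and that of Ehmt1 without WT mouse 1 (0.19), while 5 genes were higher without Trf2-/- mouse 2. Kdm3b and Jmjd1c, the paralogues of Kdm3a, had log2 fold changes of 0.20 and 0.13 and did not pass the test. Both passed with scaling by library size alone (0.30 and 0.23), and Kdm3b also did with the filter of 1 count in total (0.21) and without Trf2-/- mouse 2 (0.26).

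**Figure D4:**
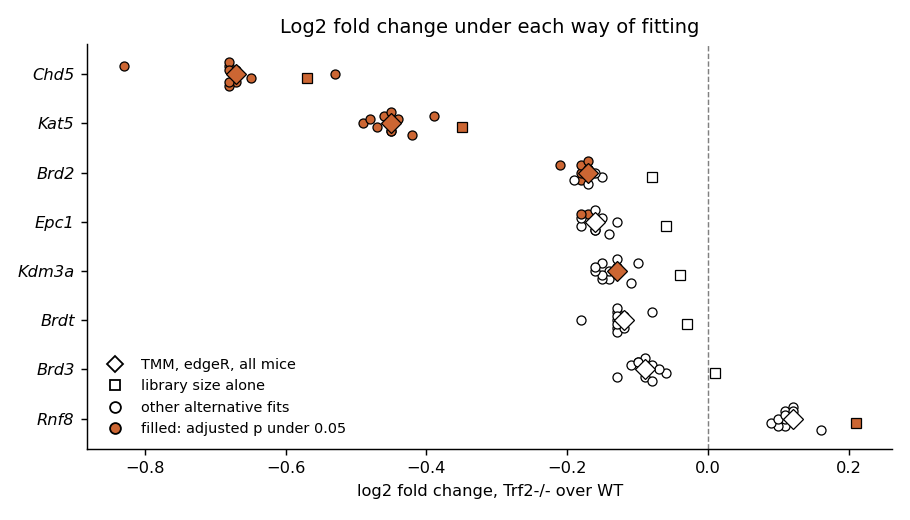
Log2 fold change of each gene under the chosen fit (diamond), with scaling by library size alone (square) and under 11 further fits (circles), filled where the adjusted p was under 0.05. Chd5 and Kat5 are filled throughout, Kdm3a only at the diamond, and the squares lie about 0.09 to the right of the diamonds.

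Of 5 listed protamine and transition protein genes 3 were analysed here, each at 4 counts or fewer in every mouse. Prm2 was counted 0, 1 and 1 times in WT and 0 times in each Trf2-/- mouse, Prm3 had 2, 1 and 0 against 0, and Tnp1 had 1, 4 and 1 against 1 in each, so no difference was detectable at this depth. Of the 8 chromatin factor genes Chd5 lay lowest, at 5.00 to 10.3 CPM, and the others were at 52.8 CPM or above in every mouse. Among 10 tested histone variants and linker histones 1 fell and 4 rose, 10.0% and 40.0%, beside 20.2% and 11.2% of all tested genes. Their median log2 fold change was 0.11. Hils1, a linker histone of spermatids, had 24, 27 and 24 counts in WT and 1, 4 and 0 counts in Trf2-/- mice (log2 fold change -3.60, adjusted p = 0.00158, and -5.09 without Trf2-/- mouse 2). Hist1h2aa and Hist1h2ba, the germ cell forms of histones H2A and H2B, rose by 0.68 and 0.18, and H1f0 and H3f3b by 0.53 and 0.21, the call of Hist1h2ba being lost without WT mouse 1 or 2 or Trf2-/- mouse 1 (0.15 to 0.19 with a mouse left out). Histone genes are similar in sequence, and the counting could have split their reads.

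The remaining lists beside the 8 genes gave counts in both directions. Over all tested genes the shares were 20.2% lower and 11.2% higher. Of 26 other bromodomain genes 9 fell and 3 rose (34.6% and 11.5%), with a median log2 fold change of -0.03, while scaling by library size alone gave 6 lower and 11 higher. The number higher was 0 without WT mouse 1 or 2 or Trf2-/- mouse 3, 1 without WT mouse 3 or Trf2-/- mouse 1, and 5 without Trf2-/- mouse 2. The largest decreases were those of the remodeler subunit Baz1a (-0.59, adjusted p = 7.48e-04), Trim24 (-0.54), the ATPase gene Smarca2 (-0.42) and Trim33 (-0.32). Of 14 other histone acetyltransferase genes 2 fell and 1 rose (14.3% and 7.14%, median 0.13). Myst2, which encodes an acetyltransferase of the same MYST family as Kat5, was lower at a log2 fold change of -0.48 (adjusted p = 7.00e-04), and Myst1 at -0.26 (call lost without any WT mouse or Trf2-/- mouse 1, range -0.33 to -0.17), while Hat1 was higher at 0.27, and 3 genes of the list were higher without WT mouse 3 or Trf2-/- mouse 2. Of 15 deacetylase genes 2 fell (Hdac1 -0.25 and Sirt2 -0.21) and 2 rose (Hdac10 0.46 and Hdac7 0.42), 13.3% each. No call of these 4 held in every fit, each being lost without WT mouse 2. Of 8 genes for DNA breaks and ADP-ribose 3 fell (Tdp1 -0.34, Xrcc1 -0.30 and Lig3 -0.20) and the topoisomerase gene Top2b rose by 0.23, 37.5% and 12.5%. Over all 131 tested genes of these lists 29 were lower and 20 higher, 22.1% and 15.3%, with a median log2 fold change of 0.04, equal to that of all tested genes. The call of a higher level moved with the mice and the scaling, from 6 to 23 genes with a mouse left out and to 58 with scaling by library size alone.

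**Figure D5:**
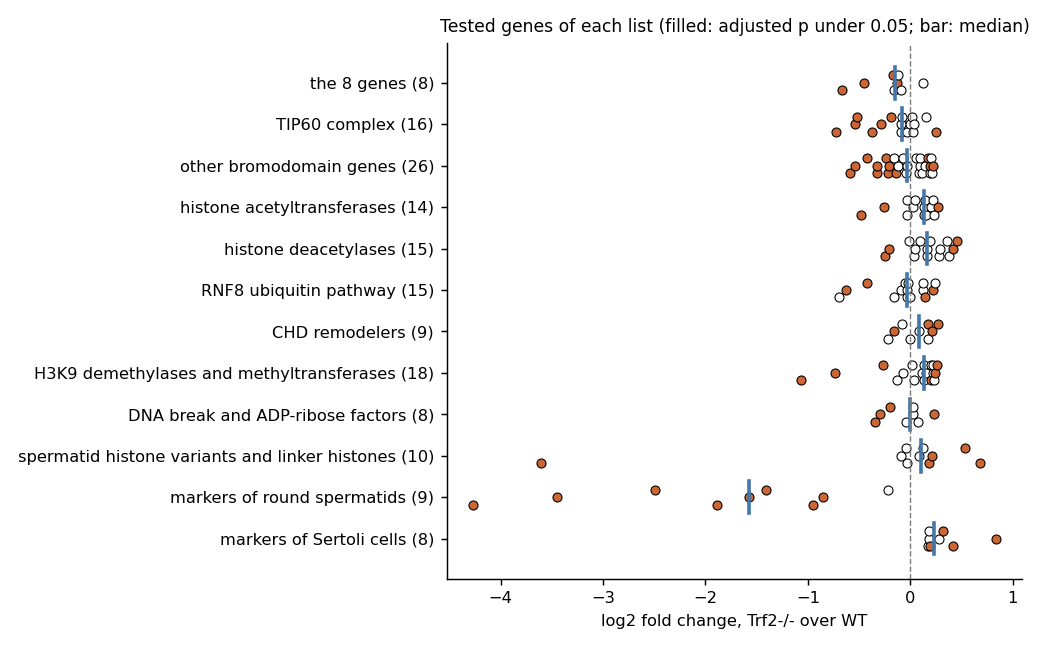
Log2 fold change (Trf2-/- over WT) of every tested gene of the lists, filled where the adjusted p was under 0.05, with the list median as a blue bar and the number of genes in brackets. The 8 genes and their pathway lists lie near 0, with medians from -0.15 to 0.16, whereas the round spermatid markers reach a median of -1.57. That median is the value of Izumo1, a gene at 37 counts or fewer in every mouse. The most abundant markers of that list, Spata16 and Acr, fell by less, at -0.95 and -0.85, and Spaca1, at -0.22, was not called.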

How the data were processed

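RNA-seq counts of 3 WT and 3 Trf2-/- testes were analysed. The libraries were stranded and depleted of ribosomal RNA, and the submitters' processing notes name TopHat2 2.0.10, Bowtie2 2.1.0, HTSeq 0.5.4p3 and DESeq2 1.0.19, with the build mm9. The authors deposited raw read counts per gene, without normalization, and gene lengths in bases. The annotation release and strand setting of the counter are not given in the sources used here. A further 12 columns of normalized values were not used.

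Counts were fitted over all genes with edgeR 4.0.16 (R 4.3.3), after filterByExpr and TMM scaling, by the quasi-likelihood test (glmQLFit, glmQLFTest), with p adjusted by Benjamini-Hochberg for 16924 genes. Genes with an adjusted p under 0.05 were called. SE was derived from the log2 fold change and its F statistic. Levels per length are CPM divided by the deposited length. Ratios within mice were compared with an exact permutation test. A count of 0 allows up to 3 counts, 0.105 to 0.190 CPM, for counting error only. P-values of the count test weigh the genotype difference against a spread between mice estimated with information from all tested genes. Those of the ratios come from permuting the genotype labels.

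The 8 genes, the pathway and marker lists and the alternatives were chosen with earlier results of these data known. Besides the 8 genes, the text names from each list at most 4 called genes with a mean of at least 1 CPM and the largest changes, a few partners fixed by name, genes that overlap the 8, and genes with levels most like Chd5. Of the partners, 1 is not reported here. Meaf6, Morf4l2, Ehmt1, Kdm4b, Kdm3b, Jmjd1c, Hils1, Prm2, Prm3 and Tnp1 were named after their values were seen, as were the cell type markers given by name. Where a symbol had several identifiers, the one with most counts was used. The fits were tested on simulated data. Replicates were checked for repeated libraries, and no pair came closer than a chi-square of 3.51 per degree of freedom.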

Additional observations from a re-analysis of the deposited data

How the results depend on the processing

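The alternatives were DESeq2's size factors, library size alone, the Wald test of DESeq2 1.42.0, a filter of 1 count in total, a minimum of 10 counts per library, a replicate block, omission of each mouse, a 2-fold threshold and an adjusted p of 0.01. Kat5 and Chd5 were called in all 12 refits. Library size alone left 2 of the 8 genes lower and 1 higher, and 58 list genes higher. A 2-fold threshold left 0 of the 8 genes, and 2 list genes lower and 0 higher, and an adjusted p of 0.01 left 1 of the 8 genes lower and 5 list genes higher. With a mouse left out, 2 to 4 of the 8 genes were lower and 6 to 23 list genes higher. The causes were not tested.

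Directions reversed with library size alone for Brd3 log2 fold change (0.01), Ftsjd2 log2 fold change (0.00) and Mdc1 log2 fold change (0.09). With a mouse left out, log2 fold changes ran from -0.03 to 0.07 for Ing3 and -0.03 to 0.01 for Mdc1, and the shift of the within-mouse log2 ratio from -0.02 to 0.13 for Brdt to Brd2 and -0.11 to 0.02 for Brdt to Brd3. Marker medians ran from -2.24 to -1.47 (round spermatids), -3.43 to -2.73 (elongating spermatids), 0.37 to 0.95 (macrophages) and -0.30 to 0.53 (T cells).

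Same-numbered mice did not deviate together over all tested genes (correlations of -0.13, -0.01 and -0.12). Differently numbered mice gave correlations from -0.06 to 0.16. A pairing that touches only some genes would not show in such values. With the replicate block 3 of the 8 genes were lower, Brd2, Kat5 and Chd5, and 26 list genes lower and 20 higher. Depth limits Chd5, at 125 to 284 counts a mouse, and the replacement proteins, at 0 to 4.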
